A study of Drosophila melanogaster with 8 samples.

Results

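The genes described here encode the replicative helicase of Drosophila melanogaster. They were chosen by symbol from the deposited count table: Mcm2, Mcm3, dpa (Mcm4), Mcm5, Mcm6, Mcm7, CDC45L (Cdc45), Sld5 and Psf2, which are 9 of its 14300 genes, and all 9 were found and passed the filter on low counts. In eukaryotes the proteins Mcm2 to Mcm7 form a ring that is loaded onto origins of replication before S phase as an inactive double hexamer. The ring becomes an active helicase when Cdc45 and the GINS complex join it, and this assembly, called CMG, unwinds DNA ahead of the polymerases. CMG has been purified from fly embryos, and the wing disc is an epithelium whose cells divide, and so replicate their DNA, through larval life. GINS has the subunits Sld5, Psf1, Psf2 and Psf3. Only Sld5 and Psf2 were chosen by name, and Psf1 and Psf3 are described beside them from a list of origin firing genes.

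The libraries held polyadenylated RNA of mesothoracic wing discs from male larvae of the 3rd instar, 5 being of Myb mutants and 3 of the yw67 control. The mutant males were hemizygous for MybMH107, a null allele made by P-element mobilization with Delta2-3 transposase. It removes the 5′ end of Myb, which encodes a DNA-binding subunit of the dREAM complex, and also the neighbouring gene alkB. The mutants die at the early pupal stage and were picked as larvae without the GFP of the balancer, and the chromosome had been outcrossed into the y1 w67c23 line that served as control. The comparison asks which genes depend on Myb. It cannot tell loss of Myb from loss of alkB, and no library of a rescued mutant was used here. The authors call alkB non-essential and state that a Myb cDNA expressed ubiquitously rescues the mutant phenotypes, lethality included. In bulk discs, fewer cells of a type and less RNA per cell cannot be told apart. The labels disagreed on the replicates: the protocol text called all libraries biological replicates, whereas by the sample descriptions all 3 control libraries were technical repeats of a single biological replicate and the mutant libraries came from 2, with library 1 alone. The p-values here thus measure the spread between libraries, which may be technical.

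Library totals ran from 50562199 to 65322440 counts. Levels are given in CPM, that is, counts relative to the TMM-adjusted total of each library. Myb itself lay between 295 and 305 CPM in the control libraries and between 4.56 and 7.24 CPM in the mutant libraries, so every library matched its label. Control library 2 stood apart from its group: its median coefficient of variation (CV) over genes was 9.20% and 10.3% against the other control libraries, which differed from each other by 3.81%, and pairs of mutant libraries differed by 3.10% to 4.82%. The wing disc markers were present, with a summed level of 1425 to 1729 CPM in the control and 1652 to 1699 CPM in the mutant. Among them 2 of 9 (dpp and ptc) passed the test, both higher. That share is 22.2%, where 34.4% of all tested genes passed. Markers of hemocytes, the blood cells that attach to discs, summed to 177 to 252 CPM in the control and to 5.51 to 17.7 CPM in the mutant. Of the 6 tested, 5 were called lower, where 17.5% of all tested genes were. Bc, the other, missed the cutoff (log2 fold change -3.74, edgeR adjusted p = 0.0534). Its mean went from 29.4 CPM to 2.23 CPM, with every mutant library below every control library. The level of lz was near 0 in both genotypes (means 0.0866 and 0.0659 CPM). The sums of the other marker lists overlapped between genotypes, at 790 to 870 and 742 to 801 CPM for myoblasts, 483 to 578 and 458 to 503 CPM for trachea, 74.4 to 4574 and 471 to 5235 CPM for fat body, and 3.97 to 17.03 and 0.630 to 186 CPM for salivary gland. Single markers nonetheless moved: in trachea btl (log2 fold change -0.81) and trh (-0.34) fell and Gasp rose (0.20), and in myoblasts hbs rose (0.39) and Ama fell (-0.23), each with an edgeR adjusted p of at most 0.0413, while 0 markers of fat body or salivary gland were called. The shares called were 60.0% of the tracheal and 28.6% of the myoblast markers. The part of the marker lists in the changes below was not tested.

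In the Myb mutant the helicase genes moved in both directions. Mcm2 and CDC45L rose by 15.7% and 12.3%, Sld5 and Psf2 fell by 15.7% and 39.1%, and the other 5 MCM genes did not pass the test. A gene was called where edgeR's quasi-likelihood test gave an adjusted p under 0.05 over all 9076 tested genes. By that rule 4 of 9 helicase genes (44.4%) were called, where 34.4% of all tested genes were, 16.9% as higher and 17.5% as lower. The median log2 fold change of the 9 genes was 0.07, and that of all tested genes was 0.01. Control and mutant libraries were fully apart for 6 of the 9, with the mutant above for Mcm2, dpa, Mcm6 and CDC45L and below for Psf2 and Sld5. Over all tested genes this held for 38.9%, 19.6% with the mutant above and 19.3% with it below. The count called over the 9 genes was thus near the background. The count fully apart, 6 of 9, was above it, but over few genes. Among these 6, dpa and Mcm6 did not pass the test. No test was run on the 9 genes as a group, and the subunits are described singly.

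**Figure D1:**
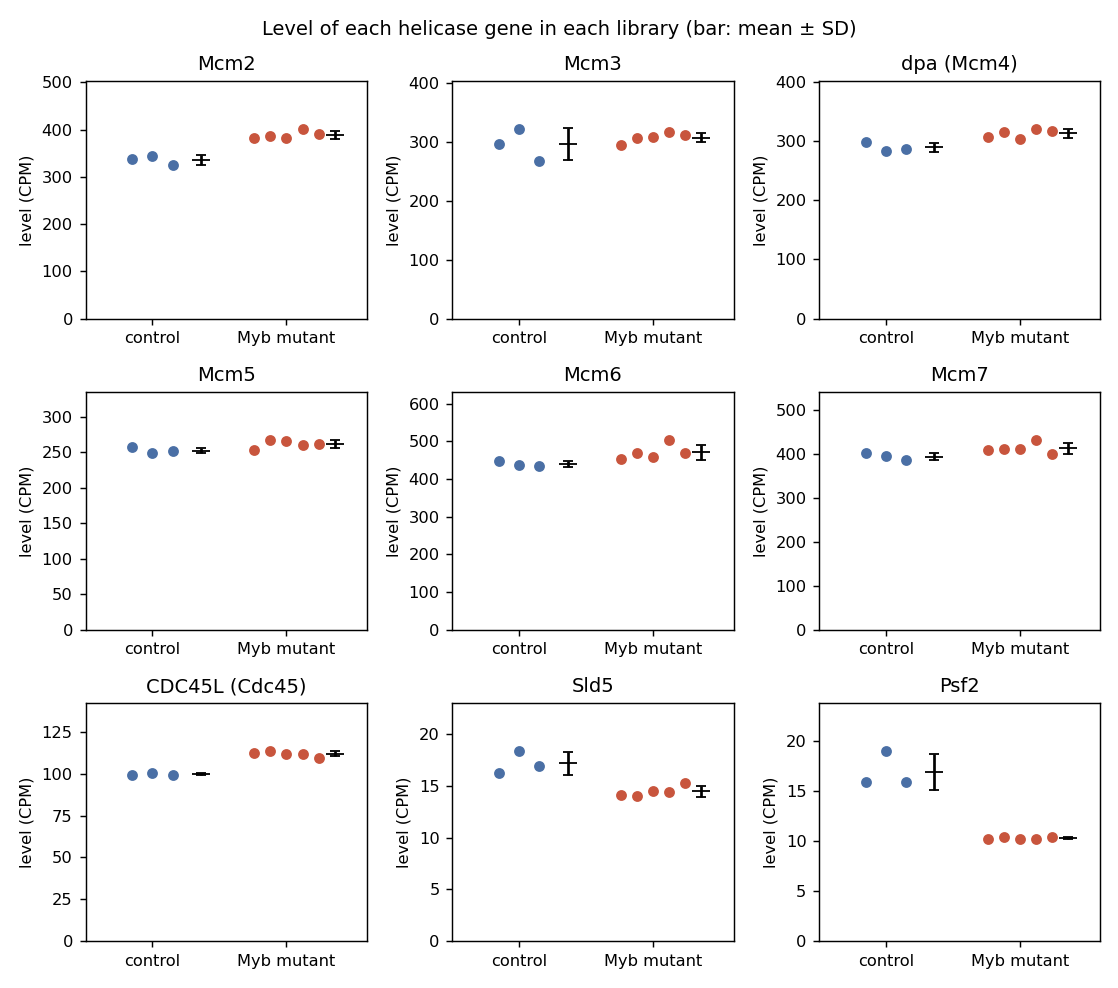
Level in CPM (vertical axes, each from 0) of the 9 helicase genes in each of the 3 control libraries (blue) and 5 Myb mutant libraries (red), with the mean and SD of each genotype as black bars. The mutant points of Psf2 lie between 10.2 and 10.4 CPM, below control points of 15.9 to 19.0 CPM, whereas those of Mcm3 lie inside the control range.

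Of the MCM genes, Mcm2 was the only one called. Mcm2 (FBgn0014861, BDGP6 3R, 8264970 to 8267924, plus strand) encodes the subunit that sits at the gate through which the ring opens with Mcm5 and that also binds histones. Control libraries 1 to 3 gave 339, 344 and 325 CPM, and the mutant libraries, in order, 383, 387, 383, 402 and 390 CPM. Every mutant library lay above every control library. The means were 336 ± 9.85 CPM (SD, n = 3) and 389 ± 7.96 CPM (SD, n = 5), a log2 fold change of 0.21 ± 0.04 SE (edgeR adjusted p = 0.0068), or 15.7% with a 95% interval of 7.95% to 24.1%.

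For dpa and Mcm6 all mutant libraries also lay above the controls, but neither gene passed the test. The gene dpa (disc proliferation abnormal, FBgn0015929, 2R, 7496702 to 7500145, minus strand) encodes Mcm4, which in yeast is phosphorylated when origins fire. Its levels were 298, 284 and 286 CPM in the control and 308, 316, 304, 321 and 317 CPM in the mutant. The lowest mutant library was above the highest control library by less than the SD of either genotype. Its log2 fold change was 0.11 ± 0.04 SE (edgeR adjusted p = 0.0738, with a 95% interval of 1.03% to 15.8%), and DESeq2 called it (adjusted p = 0.0053). Mcm6 (FBgn0025815, X, 6674387 to 6677176, plus strand), the subunit next to Mcm2 in the ring, measured 447, 436 and 434 CPM in the control and 453, 469, 458, 504 and 470 CPM in the mutant. Mutant library 4 was the highest for Mcm6, as it also was for Mcm2, Mcm3, dpa and Mcm7. The log2 fold change of Mcm6 was 0.10 ± 0.05 SE (edgeR adjusted p = 0.160).

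Mcm3, Mcm5 and Mcm7 overlapped between genotypes. Mcm3 (table identifier FBgn0024332, FBgn0284442 in the annotation, X, 5323855 to 5326738, plus strand), the subunit that in yeast contacts the loading factors, had levels of 296, 322 and 268 CPM in the control and 295, 306, 307, 316 and 311 CPM in the mutant. The control libraries alone spanned more than all mutant libraries, with a CV of 9.22% against 2.54%. The log2 fold change was 0.06 ± 0.06 SE (edgeR adjusted p = 0.524). Its sign rested on control library 3, being -0.01 without that library. Without control library 2 the value was 0.12. Mcm5 (FBgn0017577, 3R, 10788524 to 10791150, plus strand), the partner of Mcm2 at the gate, measured 257, 249 and 251 CPM in the control and 253, 268, 266, 260 and 262 CPM in the mutant. Only mutant library 1 lay inside the control range. Its log2 fold change was 0.05 ± 0.04 SE (edgeR adjusted p = 0.362), with a 95% interval of -2.84% to 10.4%. Mcm7 (FBgn0020633, 3L, 8891596 to 8894310, plus strand), a member with Mcm4 and Mcm6 of a core that has helicase activity in vitro, measured 401, 396 and 385 CPM in the control. In the mutant it measured 410, 412, 411, 432 and 399 CPM, of which the value of library 5 fell inside the control range. Its log2 fold change was 0.07 ± 0.05 SE (edgeR adjusted p = 0.286). The antisense RNA asRNA:CR45871 covers 2003 exonic bases of Mcm7 (81.7%) in the BDGP6 annotation, and whether reads were counted by strand is not given in the sources used here, so the 2 transcripts cannot be told apart in this count.

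As a group, the 6 MCM genes had 1 called higher and 0 called lower, with a median log2 fold change of 0.08. The share called was 16.7%, where 34.4% of all tested genes were called. At the lowest count of each MCM gene, Poisson sampling alone would give a CV of 0.67% to 0.88%, below the CV between libraries of every one of them in both genotypes. The precision of these values was therefore set by the spread between libraries and not by depth. For the 5 genes that were not called, the 95% intervals ran no lower than -5.89% and no higher than 16.0%.

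CDC45L encodes Cdc45, the factor that joins the MCM ring at firing and travels with the fork. The gene (FBgn0026143, X, 1028291 to 1030556, on the minus strand) had levels of 99.6, 100.5 and 99.3 CPM in the control and 113, 114, 112, 112 and 110 CPM in the mutant. The genotypes were apart by more than the full range of either, although the control CV of 0.578% was below the 1.41% of Poisson sampling and so understates the error. The means were 99.8 ± 0.577 CPM (SD, n = 3) and 112 ± 1.47 CPM (SD, n = 5), a log2 fold change of 0.17 ± 0.03 SE (edgeR adjusted p = 0.0023), or 12.3% with a 95% interval of 7.41% to 17.4%. The call was lost when libraries were summed by described biological replicate (adjusted p = 0.0801). The gene su(w[a]) overlaps it on the opposite strand but shares no exonic base with it.

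The GINS genes moved the other way. Psf2, which encodes a GINS subunit that contacts the ring, had the largest change of the 9 genes. Psf2 (table identifier FBgn0031599, FBgn0261976 in the annotation, 2L, 4386182 to 4387356, minus strand) stood at 15.9, 19.0 and 15.9 CPM in the control and 10.2, 10.4, 10.2, 10.2 and 10.4 CPM in the mutant. The mutant libraries were nearly equal, and the control spread came from library 2. The means were 16.9 ± 1.82 CPM (SD, n = 3) and 10.3 ± 0.0935 CPM (SD, n = 5), a log2 fold change of -0.72 ± 0.07 SE (edgeR adjusted p = 6.9e-05). Psf2 thus fell by 39.1%, with a 95% interval of -45.1% to -32.5%. The mutant CV of 0.908% was below the 4.26% that Poisson sampling would give at its lowest count of 552, so the closeness of the 5 mutant values is not a measure of precision. Without control library 2 the log2 fold change was -0.63, and Psf2 was called in all 14 alternatives, with adjusted p-values of at most 0.0278.

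Sld5 fell by less. It encodes a further GINS subunit, known in flies also for effects of its mutation on the cell cycle. Sld5 (FBgn0039403, 3R, 26055657 to 26056547, minus strand) measured 16.2, 18.4 and 16.9 CPM in the control and 14.1, 14.0, 14.5, 14.4 and 15.3 CPM in the mutant. The groups did not overlap, and control library 2 was again the highest. The means were 17.2 ± 1.11 CPM (SD, n = 3) and 14.5 ± 0.509 CPM (SD, n = 5), a log2 fold change of -0.25 ± 0.05 SE (edgeR adjusted p = 0.0087). Without control library 2 it was -0.20. The call was lost with libraries summed by described biological replicate (adjusted p = 0.1003).

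Both GINS genes outside the chosen 9 were lower as well. Psf3 (FBgn0030196, X, 10383353 to 10385861, on the minus strand) had levels of 25.4, 25.8 and 26.1 CPM in the control and 21.0, 21.5, 21.6, 22.5 and 21.7 CPM in the mutant, again without overlap. Its log2 fold change was -0.25 ± 0.04 SE (edgeR adjusted p = 0.0016), and it lost its call only with libraries summed by described biological replicate, at 0.0724. CG17841, on the opposite strand, shares 34.9% of its exonic bases. Psf1 (FBgn0035194, 3L, 1246986 to 1247677, minus strand) measured 21.0, 22.8 and 21.8 CPM in the control and 19.99, 19.0, 19.2, 17.7 and 20.8 CPM in the mutant. Its lowest control and highest mutant library nearly met. Its log2 fold change was -0.18 ± 0.06 SE (edgeR adjusted p = 0.0434), and it lost its call in 10 of 14 alternatives, so the fall of Psf1 is the least certain of the GINS genes. All 4 GINS genes were thus called lower, with a median log2 fold change of -0.25, where 17.5% of all tested genes were called lower. Summed by described biological replicate, only Psf2 of the 4 kept its call.

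Control library 2, the library that stood apart, lay above the other controls on the log2 scale by 0.26 for Psf2, 0.15 for Sld5, 0.09 for Psf1 and 0.00 for Psf3. It also lay above them by 0.19 for Mcm3. Among the other MCM genes and CDC45L it differed by at most 0.05 in either direction. Without that library the same 4 of the 9 genes were called.

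**Figure D2:**
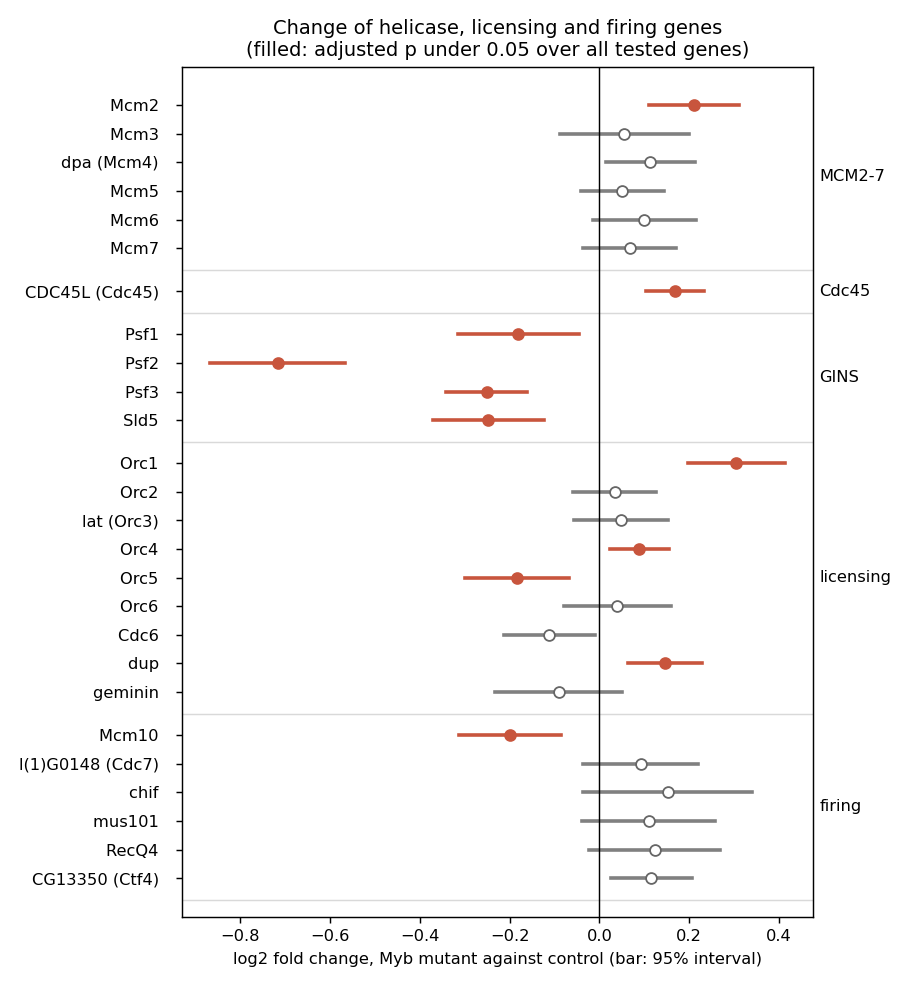
Log2 ratio of the Myb mutant to the control (horizontal axis) with its 95% interval for the helicase, licensing and origin firing genes, 1 gene a line; filled points passed the test over all tested genes. CDC45L and Mcm2 lie to the right of 0, at 0.17 and 0.21, and the 4 GINS genes lie to the left, from -0.18 to -0.72.

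Levels of different genes can be compared only per length, so CPM was divided by the exonic length of each gene in the BDGP6 annotation. The counts were made on exons of the 2008 release, whose lengths may differ from these. In the control the MCM genes lay at 94.2 (dpa) to 161 (Mcm7) CPM per kb, with Mcm6 at 157, Mcm2 at 116, Mcm3 at 107 and Mcm5 at 103. On this scale they stood at the 90.9th to 95.04th percentile of tested genes with a length. Neighbours in that order could not be separated among Mcm2, Mcm3 and Mcm5, whose control ranges overlapped through Mcm3 (97.4 to 117 CPM per kb), nor between Mcm6 and Mcm7 (156 to 160 and 157 to 164 CPM per kb). CDC45L was lower, at 45.1 ± 0.260 CPM per kb (SD, n = 3). The GINS genes were the lowest, with Psf1 at 31.6, Sld5 at 22.2, Psf2 at 19.5 and Psf3 at 10.8 CPM per kb. The 6 ring subunit genes thus spanned a narrow range, and the genes of the partners that join at firing lay below it. Psf3 has 2380 exonic bases in BDGP6, against 692 to 868 for the other GINS genes. Undivided, it was the highest GINS gene at a mean of 25.8 CPM in the control, so its low place rests on that length.

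In the mutant the gap between ring and GINS was wider. The mean GINS level was 16.1%, 18.0% and 17.3% of the mean MCM level in control libraries 1 to 3, and 13.2%, 12.6%, 12.9%, 11.95% and 13.5% in mutant libraries 1 to 5. All mutant libraries lay below all control libraries. For Psf2 alone the ratio to the MCM mean was 15.8 ± 1.55% in the control (SD, n = 3) and 8.99 ± 0.221% in the mutant (SD, n = 5). For CDC45L it was 36.6 ± 0.778% and 38.4 ± 0.986%, and there the genotypes overlapped. Summed over the 6 MCM genes the level was 739 ± 18.0 CPM per kb in the control and 792 ± 18.4 in the mutant, whereas the sum over the 4 GINS genes was 84.2 ± 4.79 and 67.6 ± 2.06 CPM per kb. Psf2 moved from the 55.5th percentile of per-length levels to the 42.0th. These ratios depend on the lengths used and are descriptions without a test. Without division by length the GINS genes summed to 78.5 to 86.1 CPM in the control and 64.8 to 68.2 CPM in the mutant.

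Within the ring, the share of each gene in the summed per-length level of the 6 MCM genes barely moved, apart from that of Mcm2. Mcm2 took 15.6%, 15.9% and 15.6% in the control and 17.1%, 16.8%, 16.9%, 16.9% and 17.1% in the mutant. The means differed by 1.26 percentage points, and the mutant libraries all lay above the controls. The mean shares of the other 5 genes differed by -0.49 to 0.12 points and overlapped between genotypes. Within GINS, Psf2 fell from a share of 23.1 ± 1.22% (SD, n = 3) to 17.6 ± 0.461% (SD, n = 5) of the summed level, while the mean share of Psf1 went from 37.6% to 41.3%.

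**Figure D3:**
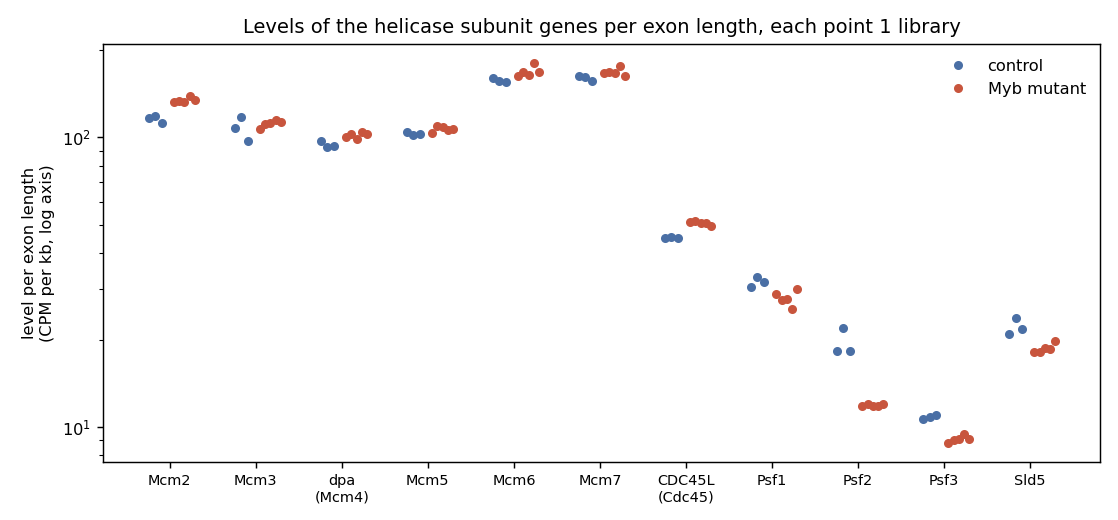
Level per exon length in CPM per kb (vertical axis, log scale) of the 6 MCM genes, CDC45L and the 4 GINS genes, each point being 1 control (blue) or Myb mutant (red) library. The MCM genes lie between 92.5 and 181 CPM per kb, CDC45L near 45 to 51 and the GINS genes below 33, with the widest gap between genotypes for Psf2.

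Deviations of log2(CPM + 0.5) from the genotype means, over the 8 libraries, correlated between pairs of MCM genes with a Pearson's r of -0.02 to 0.86 (15 pairs, median 0.42). Between MCM and GINS genes r ran from -0.82 to 0.79 (24 pairs, median -0.01), and between GINS genes from -0.45 to 0.78 (6 pairs). Without control library 2 the MCM pairs ran from 0.10 to 0.93 with a median of 0.66, those of MCM with GINS from -0.94 to 0.74 with a median of -0.05, and the GINS pairs from -0.50 to 0.51. The points share their libraries and scaling, so these values are descriptions. The tested genes whose deviations were most like those of the MCM mean were yellow-e3 (r = 0.983), CG8191 (0.981), dik (Ada3, 0.967), CG34305 (0.965) and CG31687 (0.959), each over 8 libraries. Of these yellow-e3 fell (log2 fold change -0.72 ± 0.09 SE, edgeR adjusted p = 0.00033) and the other 4 did not pass the test. A total of 52 genes had an r above 0.9, and CG34305 had a mean level of only 0.357 CPM in the control, so likeness over so few libraries is a weak criterion.

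The licensing genes encode the origin recognition complex, which marks origins, and the factors that load the MCM ring there. Of 9 tested, 3 rose, 1 fell and 5 did not pass the test, a share called of 44.4% beside the 34.4% of all tested genes. The median log2 fold change was 0.04. Orc1, the largest ORC subunit and an ATPase, rose from 63.1, 63.6 and 62.3 CPM to 72.2, 79.7, 74.9, 80.7 and 81.8 CPM (log2 fold change 0.31 ± 0.05 SE, edgeR adjusted p = 0.0014). It lost its call when libraries were summed by described biological replicate (adjusted p = 0.119). The loader dup (Cdt1) rose by 0.15 ± 0.04 SE on the log2 scale (edgeR adjusted p = 0.0145), a call lost in 2 of 14 alternatives. Orc4 rose by 0.09 ± 0.03 SE (adjusted p = 0.0438), a call lost in 11 of 14 alternatives, and Orc5 fell by 0.18 ± 0.05 SE (adjusted p = 0.0229), a call lost in 3. Cdc6, the other loading ATPase, had a log2 fold change of -0.11 ± 0.04 SE, and geminin, the inhibitor of dup, one of -0.09 ± 0.06 SE. For Orc2, lat (Orc3) and Orc6 the values were 0.03, 0.05 and 0.04.

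Of the 8 genes listed for helicase activation and origin firing, 0 rose and 3 fell: Psf1, Psf3 and Mcm10. That is 37.5% called, near the 34.4% of all tested genes, of which 17.5% were called lower. Psf1 and Psf3 were already counted with the GINS genes. Mcm10 (FBgn0032929, 2L, 21179933 to 21182812, plus strand), which shares a name with the ring subunits but is no part of the ring, is needed for the assembled helicase to start unwinding. It measured 71.6, 63.1 and 72.3 CPM in the control and 59.5, 58.8, 59.0, 62.6 and 60.6 CPM in the mutant. Control library 2 was close to the mutant range. The log2 fold change was -0.20 ± 0.05 SE (edgeR adjusted p = 0.0147), and the call was lost in 4 of 14 alternatives. The kinase genes l(1)G0148 (Cdc7) and chif, its activating partner (Dbf4), had log2 fold changes of 0.09 and 0.15 without passing the test. The same held for mus101 (TopBP1) at 0.11, RecQ4 at 0.12 and CG13350 (Ctf4) at 0.12 (edgeR adjusted p = 0.0514). Control library 2 carried much of the first 4 values, since without it they were 0.04 for l(1)G0148, 0.04 for chif, 0.02 for mus101 and 0.04 for RecQ4. The median of the list was 0.10, and 0.03 without that library.

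The MCM paralogs of meiosis were called lower in the mutant, mei-217 and mei-218 by more than rec. In flies rec (Mcm8), mei-217 and mei-218 act together in meiotic crossing over, not in the replicative ring. The gene mei-217 measured 20.9, 12.8 and 19.3 CPM in the control and 2.87, 3.65, 2.71, 2.97 and 2.30 CPM in the mutant, and its log2 fold change was -2.61 ± 0.18 SE (edgeR adjusted p = 1.3e-05). For mei-218 it was -2.61 ± 0.16 SE. These genes are annotated over the same exons, 5005 bases of which are shared, so they count as 1 measurement. For rec the levels were 37.9, 29.8 and 37.1 CPM in the control and 19.9, 20.8, 22.3, 22.1 and 22.1 CPM in the mutant, with a log2 fold change of -0.70 ± 0.08 SE (edgeR adjusted p = 0.00029). Both measurements, the shared one and that of rec, were called lower without overlap between genotypes. Of all tested genes 17.5% were called lower and 19.3% had the mutant fully below, and these measurements are few. Control library 2 was the lowest control for each of the 3 genes.

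Of 20 tested enzymes and chromatin factors of the fork, 5 rose and 4 fell, with a median log2 fold change of 0.02. The share called, 45.0%, is near the 34.4% of all tested genes. The largest rises were those of RfC3, a clamp loader subunit (0.48 ± 0.05 SE), RpA-70, the large subunit of the single-strand binding protein (0.33 ± 0.04 SE), and Caf1-180, a histone chaperone subunit (0.27 ± 0.05 SE). The largest falls were those of RfC38, also a clamp loader subunit (-0.30 ± 0.05 SE), CG5602 (DNA ligase I, -0.23 ± 0.05 SE) and Fen1, which trims Okazaki fragments (-0.21 ± 0.06 SE). The calls of RpA-70, Caf1-180, CG5602 and Fen1 were each lost in 1 of 14 alternatives. Of the other clamp loader genes, CG8142 (Rfc4) was also called lower (-0.21 ± 0.06 SE, edgeR adjusted p = 0.0335). Gnf1 (0.04) and RfC40 (-0.03) did not pass the test. Of 7 fork protection and checkpoint genes, mei-41 (ATR, log2 fold change 0.27 ± 0.08 SE) and timeout (0.18 ± 0.05 SE) rose and 0 fell, and these calls were lost in 7 and 5 of the 14 alternatives. The share called was 28.6%, near the 34.4% of all tested genes. Without control library 2 the value of mei-41 was 0.16.

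Upstream regulators and mitotic genes were counted for comparison. Of 10 regulators of the G1 to S transition, CycD rose (0.11 ± 0.03 SE, a call lost in 7 of 14 alternatives), and E2f2, the repressive E2F subunit of dREAM (-0.60 ± 0.05 SE), and Cdk4 (-0.37 ± 0.05 SE) fell. E2f, the activating E2F, had a log2 fold change of 0.10 (edgeR adjusted p = 0.247). With 7 of the 10 regulators not called, the share called was near the 34.4% of all tested genes. Of 6 dREAM genes, mip130 rose (0.15 ± 0.03 SE, a call lost in 2 of 14 alternatives), while Myb (-5.70 ± 0.14 SE) and mip40 (-0.49 ± 0.05 SE) fell. The other 3 dREAM genes did not pass the test. The share called was above the 34.4% of all tested genes, but over few genes that include the mutated Myb itself. Of 14 mitotic genes 10 fell and 0 rose, with a median log2 fold change of -0.61, led by the separase gene Sse (-1.42 ± 0.07 SE), the kinase gene aur (-1.39 ± 0.05 SE) and the kinesin gene pav (-1.01 ± 0.05 SE). The share of mitotic genes called lower was 71.4%, where 17.5% of all tested genes were called lower. Beside the mitotic median the log2 fold change of Psf2 was -0.72, and that of Sld5 was -0.25. Of the 6 MCM genes and CDC45L, 0 were called lower, which over so few genes is near the 17.5% of all tested genes.

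**Figure D4:**
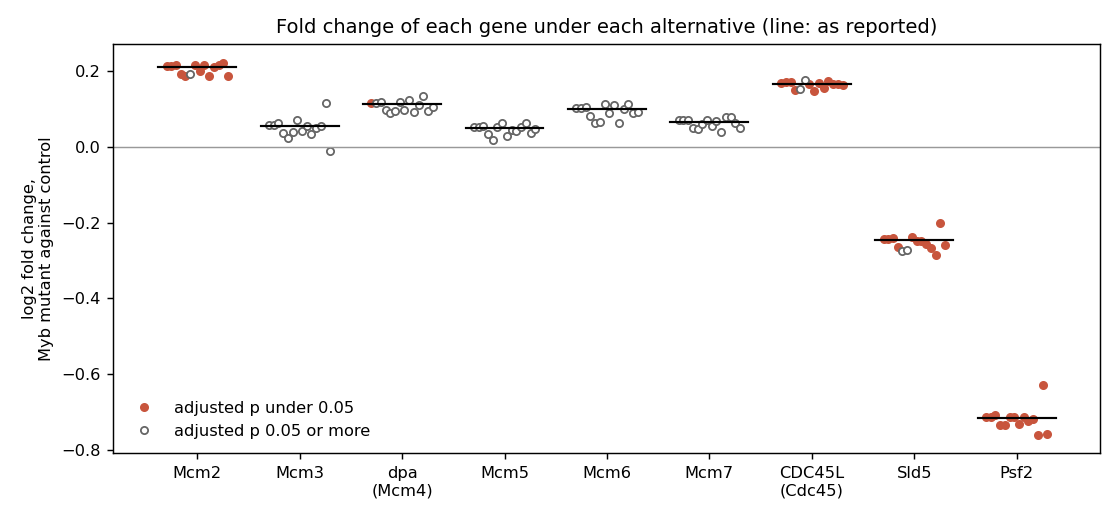
Log2 ratio of the Myb mutant to the control (vertical axis) of each of the 9 helicase genes under each of 14 alternative settings (points, filled where the adjusted p was under 0.05), with the reported value as a line. Psf2 stays between -0.76 and -0.63 and is filled at every setting, Mcm2 stays between 0.19 and 0.22, and only Mcm3 has a point below 0 among the MCM genes.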

How the data were processed

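RNA was measured in 8 libraries. The authors trimmed reads with Trimmomatic (version 0.22 per the labels), used Bowtie2 (2.1.0) to align them to the exons of FlyBase release 5 (2008), and summed the unique eXpress counts per gene; these raw counts were deposited. The deposited log2 fold changes and p-values of the authors' DESeq2 fit were not used. A row pooling mitochondrial reads (0.574% to 1.34% of counts) was left out, and 1773 genes had no counts. Totals ran from 50562199 to 65322440, and sampling error is given with each gene.

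The count model was that of edgeR 4.0.16 under R 4.3.3 (filterByExpr, TMM, quasi-likelihood test, genotype as the only term, Benjamini-Hochberg adjustment, called under 0.05), which was tested on simulated data. Each SE was derived as |log2 fold change|/√F from the test's F statistic. Positions and exonic lengths come from BDGP6 (Ensembl release 115), where 12121 identifiers matched and 504 were matched by symbol. Mcm3 and Psf2 were among the latter.

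Text names all 9 genes, Myb, every licensing and firing gene, at most 3 called genes per direction in each other list, and the 5 genes most like the MCM mean. Members and lists were chosen with earlier results of these data known. E2f, CG8142, Gnf1, RfC40 and the marker genes dpp, ptc, Bc, lz, btl, trh, Gasp, hbs and Ama were named after their values were seen. Alternatives were DESeq2 version 1.42.0, its size factors, library totals, no filter, libraries summed by described biological replicate, the replicate number as a block, and leaving out each library. No sequence tables were used here.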

Additional observations from a re-analysis of the deposited data

How the results depend on the processing

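The 14 alternatives changed the number of calls most in the fit on summed libraries and the fit with a replicate block. Both also rested on fewer effective samples, so their lower counts do not measure dependence between libraries alone. Summed by described biological replicate (1 control sample, assumed to vary like the 2 mutant samples), 1510 genes were called in place of 3121, 2 of the 9 helicase genes in place of 4 (Mcm2 at an adjusted p of 0.0478 and Psf2 at 0.0278), and 22 of 77 pathway genes in place of 37. With the replicate number as a block, 1397 genes, 1 helicase gene (Psf2, adjusted p = 0.0086) and 23 pathway genes were called, with adjusted p-values of 0.133, 0.0682 and 0.0666 for Mcm2, CDC45L and Sld5. The numbers do not pair the libraries: same-numbered libraries deviated together with r of 0.32, -0.11 and 0.01. Mutant libraries 4 and 5 have no control of the same number, so they added nothing to the genotype difference in the block fit. DESeq2 called 5 helicase genes, adding dpa. Leaving out 1 library at a time gave 2452 to 3460 genes, 4 helicase genes in every fit, a helicase median of 0.0422 to 0.0890 and 31 to 45 pathway genes. The sign of Mcm3, not called in any fit, reversed to -0.0099 without control replicate 3, the lowest of its values (the highest, 0.1172, came without control replicate 2). The other 8 helicase genes kept their direction under all 14 alternatives. Mcm2 gained 1.31 percentage points of MCM counts without division by length, where the per-length value was 1.26. Depth limited Psf2 and Sld5 most, with sampling CVs of up to 4.26% and 3.66%.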
